A study of Mus musculus with 16 samples.

Results

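De novo lipogenesis, the synthesis of fatty acids from glucose carbon, was examined through 10 genes chosen by name: the enzymes Acly, Acaca, Acacb, Fasn, Elovl6, Scd1, Scd2 and Me1, and the transcription factors Srebf1 (SREBP1) and Mlxipl (ChREBP). All 10 members were found in both expression tables, among 30325 genes listed for gonadal fat and 30946 for subcutaneous fat, and all 10 passed the filter on low values in both. The samples came from female mice on the C57BL/6J background that carried the null allele B6.129P2-Lcn2tm1Aade/AkiJ, so every mouse lacked its own Lcn2, the gene for the secreted protein lipocalin-2. At 8 weeks of age each mouse had received an intravenous AAV8 vector that carried either LCN2 or, as the control, GFP. In both vectors an adiponectin promoter, active in fat cells, drove the insert, and a microRNA122 target sequence led to its breakdown in liver. Until 16 weeks of age both groups ate the same HF/HS diet (Research Diets D12266B). RNA sequencing covered 4 GFP samples and 4 LCN2 samples of each depot, 16 samples in all. No mice with an intact Lcn2 gene and no other diet were part of the comparison, so the values describe LCN2 against GFP in fat of Lcn2-null females on this diet.

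In fat cells, citrate exported from mitochondria is cleaved to acetyl-CoA by ATP citrate lyase (Acly), acetyl-CoA carboxylase (Acaca, and the mitochondrial form Acacb) makes malonyl-CoA, and fatty acid synthase (Fasn) joins these units into palmitate with NADPH that malic enzyme (Me1) helps to supply. Elovl6 lengthens palmitate to stearate, and the stearoyl-CoA desaturases Scd1 and Scd2 introduce a double bond. SREBP1, which acts downstream of insulin, and ChREBP, which responds to glucose metabolites, are the best known activators of these genes, so the enzymes are known to rise and fall together with feeding and fasting.

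The promoters of the members were searched for the motifs of these factors and for those of NF-Y and SP1, factors of many promoters. RefSeq start sites of the GRCm38.p6 assembly gave 12 windows for 8 of the members, each from 250 bases before to 50 bases after a start, and Scd1 and Scd2 had no entry. Each motif was searched on both strands. The CCAAT box (CCAAT, bound by NF-Y) lay in 7 of the 12 windows, from 6 genes (for Acly after the start), and in 37.4% of all 32851 windows. The GC box (GGGCGG, bound by SP1) lay in 5 of the 12 windows, from 4 genes, and in 35.7% of all windows. The E-box CACGTG, the core of carbohydrate response elements, lay in 1 window, of Mlxipl, and in 7.15% of all windows. The sterol response element TCACNCCAC also lay in 1 window, of Mlxipl, and in 1.24% of all windows. None of the enzyme windows held either of these 2 motifs. Only these letters within these windows were searched, so sites with other letters or outside the windows would not be seen. The Acaca and Elovl6 windows held none of the 4 motifs. The Acaca window (chr11:84195188-84195487) and the Acacb window (chr5:114165268-114165567) lie at start sites inside the gene positions given below, not at the outermost start. The runs below are shown for Fasn and Acly, whose values ranged widely between samples, for Acacb, the member whose subcutaneous groups did not overlap, and for the regulators Mlxipl and Srebf1. Capitals mark the motif on the gene's strand, and a motif read from the other strand appears as its reverse complement. The Fasn run is chr11:120824592-120824621 on the minus strand, 62 bases before the start at the motif's first base, and its CCAAT is overlapped by a second, reverse match. The Acly run is chr11:100528071-100528100 on the minus strand, and it ends in a second GC box match, left in lower case. The Acacb run is chr5:114165419-114165448 on the plus strand. The Mlxipl runs are chr5:135089780-135089809 and, at another start site of the gene, chr5:135106745-135106774, both on the plus strand. The Srebf1 run is chr11:60210484-60210513 on the minus strand, at a start site inside the gene. A match describes these letters and is not a measured binding site.
Fasn CCAAT box: cggcctcggtgtCCAATtggtttcgatgtg
Acacb CCAAT box: gtacaagggaccCCAATagccttgccccac
Srebf1 CCAAT box: gcgcggctgctgATTGGccatgtgcgctca
Acly GC box: ccatcctaggccCCGCCCacggccccgccc
Mlxipl E-box: gcggctgccatcCACGTGctaaggagagaa
Mlxipl sterol response element: atcagtggttTCACACCACgctcactggtt

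The gonadal libraries held 35173260 to 42890102 reads assigned to genes (median 37423116), recovered from the deposited normalized counts. The subcutaneous table holds regularized log2 values (rlog, a log2 scale that pulls low values together), so its depth is unknown. Reads of Lcn2 were present in every sample: gonadal normalized counts were 62.1 to 103 with GFP and 186 to 522 with LCN2, and subcutaneous rlog values were 7.76 to 8.37 with GFP and 8.49 to 9.82 with LCN2. For Lcn2 the LCN2 samples lay above all GFP samples in both depots. Which exons the null allele has lost is not stated in the labels, so the Lcn2 reads of the GFP samples cannot be placed. All 8 fat cell markers examined, Adipoq and Plin1 among them, were measured in both depots. Lists of other cell types varied between samples: gonadal hepatocyte markers were highest in GFP 1, LCN2 1 and LCN2 2, gonadal muscle markers in LCN2 4, and subcutaneous lymph node markers in GFP 1, GFP 2 and LCN2 4. In bulk tissue, fewer cells of a type and less RNA per cell cannot be told apart.

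In gonadal fat most of the lipogenic genes varied widely among samples of one vector, and the groups overlapped for all 10. None of the 10 members passed the test between LCN2 and GFP (limma, Benjamini-Hochberg adjusted p under 0.05), a rule that called 20 of 19536 genes, 0.102%. edgeR on the recovered reads called 7 genes (0.0358%) and DESeq2 called 818 (4.19%), and neither list held a member. None of the 10 had an unadjusted p under 0.05, against 14.8% of all genes tested, and for none did the groups fail to overlap, against 9.11% (4.71% with LCN2 lower). The difference was below 0 for 7 of 10 members and for 48.0% of all genes. The median member difference was -0.22 on the log2 scale, and the median over all genes was 0.01. The adjusted p-values of the members ran from 0.492 to 0.978.

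**Figure D1:**
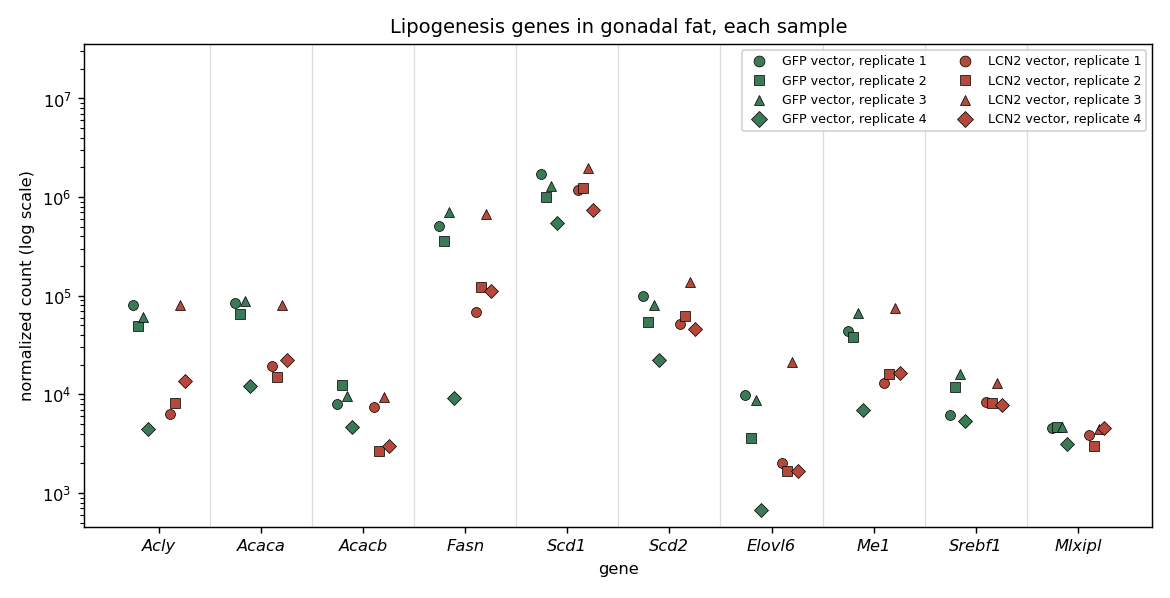
Normalized counts of the 10 members in each gonadal sample, on a log axis; colour gives the vector and shape the replicate number. GFP 4 is the lowest of the GFP samples for all 10 genes, and LCN2 3 is the highest of the LCN2 samples for 9 of the 10.

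Acly (chr11:100476353-100528000, minus strand, gene annotation GENCODE vM21 on GRCm38, as for all gene positions here) provides cytosolic acetyl-CoA. In replicate order the 4 GFP samples held 80199, 48819, 61120 and 4468 normalized counts, and the 4 LCN2 samples held 6352, 8113, 80679 and 13776. The groups overlapped: GFP 1 to 3 and LCN2 3 lay at 48819 or above, while GFP 4 and the other LCN2 samples lay at 13776 or below. The difference, LCN2 minus GFP, was -1.06 ± 1.04 (SE) on the log2 scale (95% confidence interval -3.42 to 1.31, limma adjusted p = 0.698).

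The carboxylases use that acetyl-CoA. Acaca (chr11:84129672-84401651, plus strand), the cytosolic form that feeds fatty acid synthesis, held 84478, 64640, 89376 and 12111 normalized counts with GFP and 19625, 14910, 80537 and 22564 with LCN2. Acaca showed the same 4 high and 4 low samples as Acly, and its difference was -0.87 ± 0.72 (SE, limma adjusted p = 0.634). Acacb (chr5:114146535-114250761, plus strand) encodes the form at the outer mitochondrial membrane, whose malonyl-CoA inhibits fatty acid entry into mitochondria. Acacb held 8069, 12520, 9564 and 4644 normalized counts with GFP and 7509, 2691, 9351 and 2964 with LCN2. The groups overlapped, and the difference was -0.75 ± 0.46 (SE, 95% confidence interval -1.78 to 0.28, limma adjusted p = 0.492), the lowest adjusted p among the gonadal members. The ratio of Acacb to Acaca counts, not corrected for length, was 9.55%, 19.4%, 10.7% and 38.3% in the GFP samples and 38.3%, 18.05%, 11.6% and 13.1% in the LCN2 samples. The ratio was thus equally high in GFP 4 and LCN2 1 and covered nearly the same range in both groups.

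Fasn (chr11:120805846-120824547, minus strand) had the widest range of the members. Fasn held 508360, 361444, 706174 and 9094 normalized counts with GFP and 68635, 122550, 675696 and 111968 with LCN2. The highest GFP sample held 77.7 times the lowest, and the highest LCN2 sample 9.84 times the lowest. Between the vectors the difference was -0.22 ± 1.35 (SE), with a 95% confidence interval of -3.29 to 2.84 (limma adjusted p = 0.963), an interval that spans changes of several fold in either direction.

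Elovl6 (chr3:129532355-129638495, plus strand), which elongates palmitate, held 9963, 3590, 8831 and 678 normalized counts with GFP and 2007, 1686, 21238 and 1663 with LCN2. LCN2 3 stood above every other sample and GFP 4 below every other sample. The difference was -0.21 ± 1.04 (SE, limma adjusted p = 0.953).

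The desaturases ranged less. Scd1 (chr19:44394455-44407879, minus strand), the main desaturase of fat, held 1734789, 1003687, 1287165 and 540834 normalized counts with GFP and 1170307, 1244485, 1994370 and 739817 with LCN2. Scd2 (chr19:44293674-44306864, plus strand), its neighbour, held 100365, 54623, 81092 and 22414 with GFP and 51968, 62362, 138105 and 46308 with LCN2. For both genes LCN2 3 was highest and GFP 4 lowest, but GFP 1 to 3 did not all lie above the other LCN2 samples as they did for Acly, Acaca and Fasn. The differences were 0.21 ± 0.61 for Scd1 (SE, limma adjusted p = 0.918) and 0.26 ± 0.50 for Scd2 (SE, limma adjusted p = 0.864). The limma fit draws each SE toward that of genes of similar level, and without this trend the Scd1 SE was 0.41. Reads of Scd1 and its copies can be hard to assign: of all 50-base stretches of the Scd1 transcript, 3.03% also occur in Scd2, 3.49% in Scd3 and 1.76% in Scd4. Across the 8 gonadal samples Scd2 held 4.14% to 6.92% of the Scd1 count, Scd3 3.32% to 3.83% and Scd4 1.48% to 1.69%. The last of these ranges are narrow, and whether reads shared with Scd1 contribute to Scd3 and Scd4 was not tested.

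Me1 (chr9:86581371-86695953, minus strand), the cytosolic malic enzyme, held 43448, 37820, 66294 and 6912 normalized counts with GFP and 13005, 16155, 75801 and 16560 with LCN2. Me1 repeated the 4 high and 4 low samples of Acly, and its difference was -0.38 ± 0.77 (SE, limma adjusted p = 0.874).

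The regulators varied less than the enzymes. Srebf1 (chr11:60199089-60222581, minus strand) held 6146, 11942, 16002 and 5345 normalized counts with GFP and 8321, 8223, 12947 and 7802 with LCN2. The LCN2 samples lay inside the GFP range, and the difference was 0.03 ± 0.35 (SE, limma adjusted p = 0.978). Mlxipl (chr5:135089890-135138382, plus strand) held 4518, 4674, 4657 and 3151 with GFP and 3898, 3008, 4501 and 4533 with LCN2. All 8 Mlxipl samples lay within 1.55 times of each other, and the difference was -0.09 ± 0.17 (SE, limma adjusted p = 0.855). Exons of Gm43500, on the opposite strand, cover 4.24% of the Mlxipl exon bases, and those of Rai1 cover 1.93% of the Srebf1 exon bases, and the strand setting of the counting is not given in the sources used here.

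Corrected for exon length, the members spanned a wide range of levels in gonadal fat. Scd1 had a median of 6384 RPKM (reads scaled for exon length and library size, range over the 8 samples 3406 to 10223), above every sample of every other member. Next came Fasn (570, range 25.6 to 1592), Scd2 (281, range 126 to 634), Me1 (183, range 55.3 to 494), Acly (153, range 26.1 to 396) and Acaca (66.0, range 21.9 to 129). The lower levels were those of Srebf1 (39.1, range 28.4 to 70.1), Acacb (21.1, range 7.56 to 32.9), Mlxipl (20.6, range 14.7 to 22.4) and Elovl6 (11.2, range 3.25 to 82.8). After Scd1, the ranges of neighbours in this order overlapped. The 10 genes together took 1.88% to 6.72% of all reads in the GFP samples (median 4.91%) and 2.64% to 7.76% in the LCN2 samples (median 3.78%), and Scd1 alone took 1.67% to 5.001%. The summed normalized count of the 8 fat cell markers was 764559 to 1318577 with GFP and 729677 to 906901 with LCN2, and all 8 had differences below 0, none called. Reads of these markers made up 1.83% (LCN2 3) to 3.34% (GFP 2) of a library, and the part of fat cell content in the member values was not tested.

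In subcutaneous fat the same genes again showed no member past the test. The test called 0 of 20302 genes (limma, 0.0%), with 2851 genes (14.0%) at an unadjusted p under 0.05, and no count model could be run on rlog values. The difference was below 0 for 8 of the 10 members, against 50.2% of all genes, with a median of -0.65 for the members and -0.00 for all genes. Acacb was the only member with an unadjusted p under 0.05 and the only one whose groups did not overlap, with LCN2 lower. Of all genes tested, 7.08% did not overlap and 3.27% did so with LCN2 lower.

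**Figure D2:**
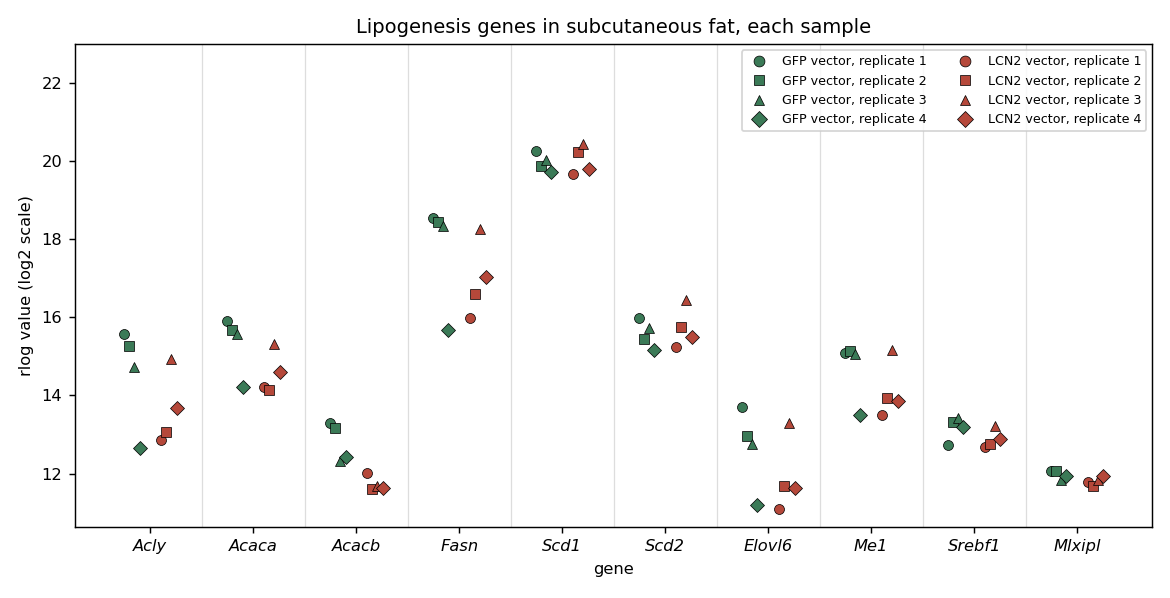
Deposited rlog values (log2 scale) of the 10 members in each subcutaneous sample; colour gives the vector and shape the replicate number. Acacb is the one gene whose LCN2 samples (11.60 to 12.01) all lie below the GFP samples (12.32 to 13.29).

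Acacb rlog values were 13.29, 13.17, 12.32 and 12.42 with GFP and 12.01, 11.60, 11.68 and 11.63 with LCN2. GFP 1 and GFP 2 were the highest, and LCN2 3, which was high for most other members, lay with the other LCN2 samples. The difference was -1.07 ± 0.23 (SE, 95% confidence interval -1.60 to -0.54), and it did not pass the limma test after adjustment over all genes (adjusted p = 0.308). Acaca rlog values were 15.90, 15.66, 15.56 and 14.22 with GFP and 14.22, 14.13, 15.33 and 14.61 with LCN2. Unlike Acacb, Acaca was high in LCN2 3 and low in GFP 4, and its difference was -0.77 ± 0.40 (SE, limma adjusted p = 0.414). The Acacb value minus the Acaca value ran from -3.24 to -1.80 with GFP and from -3.65 to -2.21 with LCN2, and the groups overlapped.

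Acly rlog values were 15.58, 15.25, 14.73 and 12.66 with GFP and 12.85, 13.06, 14.94 and 13.69 with LCN2. GFP 1 to 3 and LCN2 3 again formed the upper 4 samples, and the difference was -0.92 ± 0.69 (SE, limma adjusted p = 0.540). Fasn rlog values were 18.54, 18.43, 18.34 and 15.67 with GFP and 15.97, 16.59, 18.26 and 17.03 with LCN2. Fasn had the same upper 4 samples, and GFP 4 was the lowest of all 8. The Fasn difference was -0.78 ± 0.73 (SE, limma adjusted p = 0.622).

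Elovl6 rlog values were 13.70, 12.95, 12.76 and 11.20 with GFP and 11.10, 11.67, 13.28 and 11.64 with LCN2, a difference of -0.73 ± 0.60 (SE, limma adjusted p = 0.575). Me1 rlog values were 15.08, 15.14, 15.05 and 13.49 with GFP and 13.50, 13.93, 15.16 and 13.87 with LCN2, a difference of -0.58 ± 0.46 (SE, limma adjusted p = 0.567). For Me1, GFP 4 and LCN2 1 were almost level at the bottom while LCN2 3 was the highest of all. Scd1 rlog values were 20.26, 19.87, 20.02 and 19.71 with GFP and 19.66, 20.24, 20.43 and 19.79 with LCN2, a difference of 0.07 ± 0.41 (SE, limma adjusted p = 0.954). Scd2 rlog values were 15.99, 15.44, 15.74 and 15.16 with GFP and 15.24, 15.75, 16.43 and 15.51 with LCN2, a difference of 0.15 ± 0.28 (SE, limma adjusted p = 0.816). Both desaturases covered similar ranges with each vector, and their confidence intervals, -0.87 to 1.01 and -0.48 to 0.78, spanned 0. Without the trend of the limma fit over level the Scd1 SE was 0.19, so its interval is wider than its own spread gives.

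Srebf1 rlog values were 12.73, 13.32, 13.42 and 13.18 with GFP and 12.69, 12.76, 13.21 and 12.87 with LCN2, a difference of -0.28 ± 0.17 (SE, limma adjusted p = 0.465). Mlxipl rlog values were 12.06, 12.06, 11.83 and 11.93 with GFP and 11.79, 11.68, 11.84 and 11.93 with LCN2, a difference of -0.16 ± 0.08 (SE, limma adjusted p = 0.381). As in gonadal fat, the regulators spanned less than most enzymes: Srebf1 covered 0.73 and Mlxipl 0.39 on the log2 scale over all 8 samples, and Acly 2.92 and Fasn 2.87. Per kilobase of exon, the median rlog level was again highest for Scd1 (17.65), followed by Fasn (14.19), Scd2 (13.17) and Me1 (12.54), and lowest for Acacb (8.90).

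Mean values of marker lists of other cells varied between the subcutaneous samples, with overlapping groups. The mean rlog value of 6 brown or beige fat markers was 7.503 to 9.41 with GFP and 7.06 to 7.74 with LCN2, with Ucp1 at 12.18 in GFP 1 and 10.98 in GFP 4. The mean of 7 lymph node lymphocyte markers was 5.77 to 10.26 with GFP and 5.70 to 8.21 with LCN2. All 6 brown or beige, all 7 lymph node and all 8 hepatocyte markers had differences below 0, and all 6 macrophage markers had differences above 0, none called. Of these, 3 brown or beige, 1 hepatocyte and 1 macrophage marker had an unadjusted limma p under 0.05, and the groups of 1 hepatocyte marker did not overlap. Their part in the member values was not tested. Without GFP 1 and GFP 2, the samples with the most lymph node signal, the Acacb difference was -0.64, that of Acly -0.06 and that of Fasn -0.04. GFP 1 and GFP 2 were also the highest samples for Acacb, Acly and Fasn, and LCN2 4 (lymph node mean 8.21) was kept. This fit therefore cannot tell lymph node signal from the loss of the highest member values. The mean over the 8 fat cell markers was level, 15.71 to 16.19 with GFP and 15.80 to 16.02 with LCN2.

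**Figure D3:**
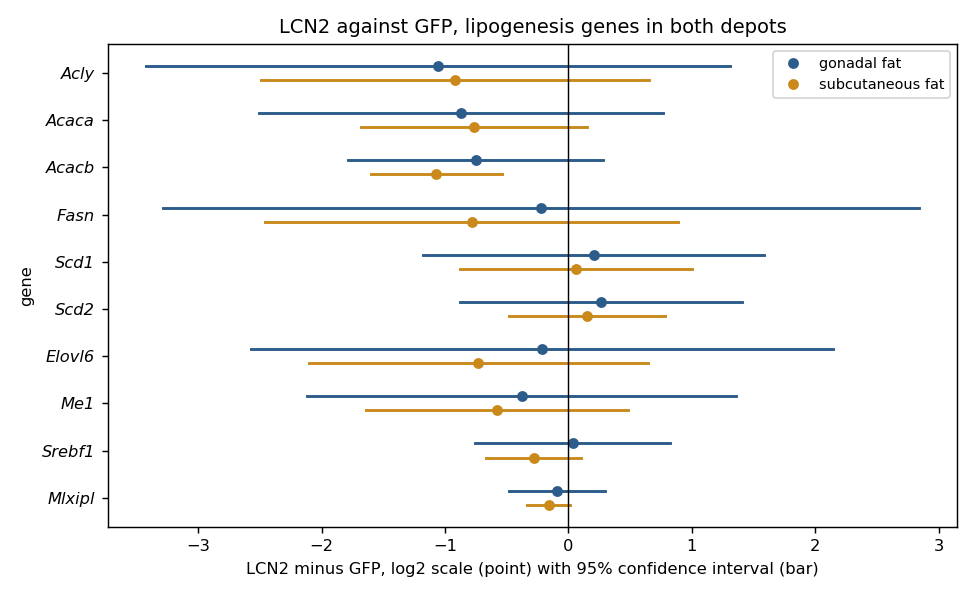
Differences between LCN2 and GFP (points, log2 scale) with 95% confidence intervals (bars, limma) for the 10 members in both depots. All gonadal intervals include 0, and in subcutaneous fat the Acacb interval, -1.60 to -0.54, is the one that does not.

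The upper samples were largely the same in both depots, while the full order differed. For 7 of the 10 members the 4 samples with the highest values carried the same labels in gonadal and in subcutaneous fat. GFP 1, 2 and 3 together with LCN2 3 were the 4 highest for 6 members in gonadal fat (Acly, Acaca, Acacb, Fasn, Elovl6 and Me1) and for 5 in subcutaneous fat (those without Acacb). GFP 4 was the lowest of the GFP samples for all 10 members in gonadal fat and for 7 in subcutaneous fat, and the lowest of all 8 samples for 8 and 4 members. LCN2 3 was the highest of the LCN2 samples for 9 and 8 members. Whether equal numbers in the 2 depots stand for 1 mouse is not stated in the labels, so the shared order is given as a description. The depots were normalized separately, and a difference in the LCN2 effect between them was not tested.

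**Figure D4:**
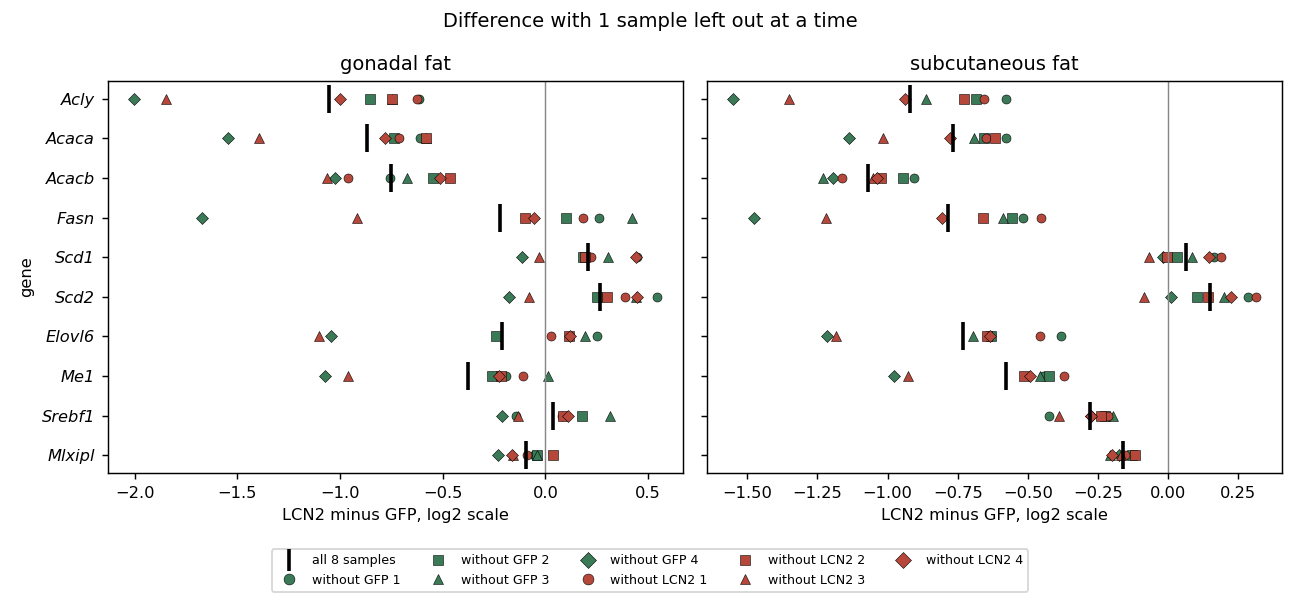
LCN2 minus GFP (log2 scale) for each member with all 8 samples (black bar) and with 1 sample left out (symbols), in gonadal fat on the left and subcutaneous fat on the right. Leaving out GFP 4 or LCN2 3 moves Acly, Acaca, Fasn, Elovl6 and Me1 furthest below 0, for gonadal Fasn to -1.67 and -0.92.

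For Acly, Acaca, Fasn, Elovl6 and Me1, leaving out GFP 4 or LCN2 3 moved the difference more than leaving out any other sample, in both depots. Without GFP 4 the gonadal difference of Acly was -2.005 and that of Fasn -1.67, and without LCN2 3 they were -1.85 and -0.92. Without GFP 3 the gonadal Fasn difference was above 0, at 0.42. Leaving out 1 sample at a time turned the sign of 7 of the 10 gonadal members in 18 of 80 fits, and of 2 subcutaneous members, Scd1 and Scd2, in 4 of 80 fits. In none of these fits did a member pass the test, and over all settings the lowest adjusted p of a member was 0.174 in gonadal fat and 0.0557 in subcutaneous fat, the latter for Acacb with sample weights. The subcutaneous Acacb difference kept its sign in every such fit, from -1.23 to -0.91. Unadjusted limma p-values depended on GFP 4, a sample singled out after its values were seen. Without it, subcutaneous values were 0.0047 for Acaca, 0.015 for Acly, 0.021 for Fasn, 0.028 for Me1 and 0.044 for Elovl6. Acacb stayed under 0.05, and Scd1, Scd2, Srebf1 and Mlxipl stayed above it. In that fit 3822 of 20302 genes were under 0.05. In gonadal fat only Acaca (0.018) and Acly (0.035) were, among 3838 of 19536 genes.

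**Figure D5:**
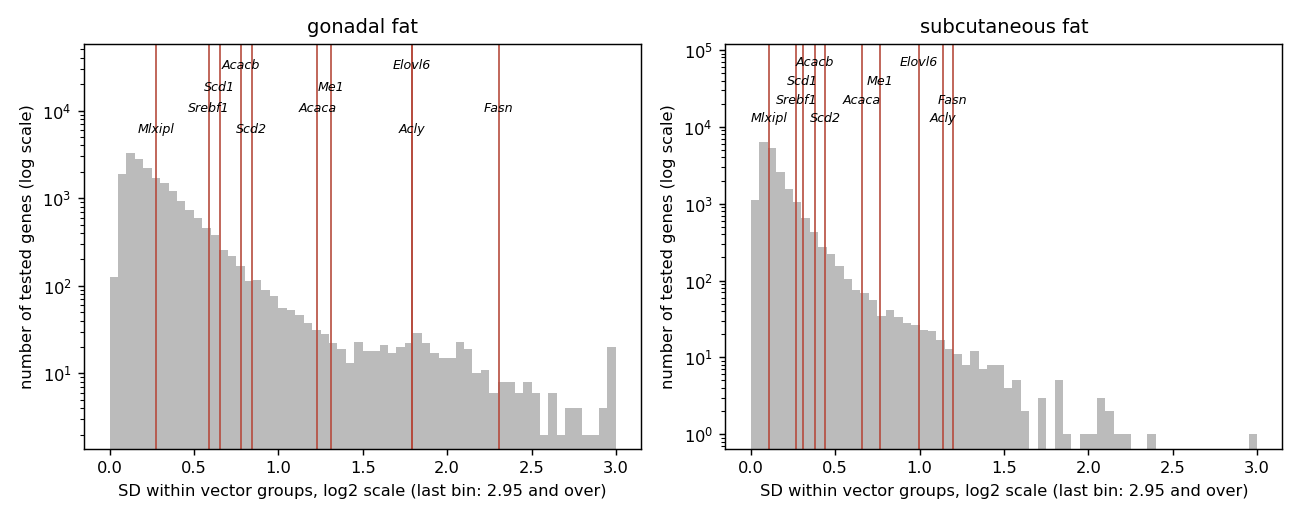
Distribution over all tested genes of the SD of values within vector groups (log2 scale, grey bars, gene number on a log axis), with the 10 members as lines. Fasn, Acly and Elovl6 lie far to the right in both depots and Mlxipl near the bulk of genes.

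The lipogenic enzymes varied more within a vector than most genes did. The SD within groups had a median of 1.04 over the 10 members in gonadal fat (log2 scale) and of 0.24 over all genes tested, and in subcutaneous fat the medians were 0.55 and 0.12. Fasn, at 2.31 and 1.20, lay at the 99.6th percentile of all genes in each depot. Acly and Elovl6 lay at the 98.7th percentile in gonadal fat and at the 99.5th and 99.2nd in subcutaneous fat. The other enzymes and Srebf1 lay between the 88.6th and 97.8th percentile in gonadal fat and between the 85.7th and 98.4th in subcutaneous fat. Mlxipl was the least variable member, at the 57.5th and 44.1st percentile. Such a spread was not particular to the members: among the other lists the gonadal median SD was 0.91 for carbohydrate-response targets, 1.29 for brown or beige fat, 1.92 for hepatocyte and 2.61 for muscle markers, and the subcutaneous median was 0.55 for brown or beige fat and 2.08 for lymph node markers.

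Genes whose values followed the members most closely were sought among the more abundant genes by the correlation with the mean of the members' standardised values over the 8 samples of a depot. In gonadal fat these were Ttc9c, Acat3, Prelid3b, Ran and Spryd7, with Pearson r of 0.98 to 0.99. Their ranges differed: from the lowest to the highest sample Ttc9c spanned 1.32-fold, Spryd7 1.67-fold, Prelid3b 1.89-fold, Ran 2.18-fold and Acat3 4.12-fold. In subcutaneous fat they were Dlat, Slc25a1, Pole4, Atp5f1 and Bmi1, also with r of 0.98 to 0.99. Slc25a1, the mitochondrial citrate carrier, spanned 1.27 on the log2 scale, Dlat 0.71, Pole4 0.47, Atp5f1 0.33 and Bmi1 0.30. The points share their libraries and scaling with the members, and these values describe these samples.

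Around the members, 15 genes of glucose uptake, glycolysis, pyruvate dehydrogenase and citrate export were measured in each depot, and none was called. Their differences were below 0 for 10 of 15 in gonadal fat (median -0.06) and for 15 of 15 in subcutaneous fat (median -0.24). The smallest unadjusted p-values in gonadal fat belonged to Pdk4, a kinase that inhibits pyruvate dehydrogenase (2983 ± 833 normalized counts with GFP, 5032 ± 4141 with LCN2, SD, n = 4 each), and to the phosphofructokinase gene Pfkl. In subcutaneous fat they belonged to the glucose transporter gene Slc2a1 (9.04 ± 0.13 and 8.88 ± 0.09) and to Gpi1, the glucose-6-phosphate isomerase (12.77 ± 0.26 and 12.53 ± 0.14). No gene of this list had an unadjusted limma p under 0.05 in either depot, and the lowest gonadal adjusted p was 0.672. Leaving out 1 sample brought the gonadal differences as low as 0.007 for Pdk4 and 0.005 for Pfkl. The summed share of this list was lowest in GFP 4 (0.199% of gonadal reads), where the members were lowest. It was highest, and nearly equal, in LCN2 3 (0.537%) and GFP 3 (0.535%). By summed normalized count GFP 3 (216929) lay above LCN2 3 (214045).

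Of 9 genes that supply NADPH, none was called, and 5 in gonadal and 3 in subcutaneous fat had differences below 0. Subcutaneous G6pdx, the first enzyme of the pentose phosphate pathway, had 12.83 ± 0.16 with GFP and 13.25 ± 0.23 with LCN2 (SD, n = 4 each), and its groups did not overlap (difference 0.42 ± 0.13, SE, limma adjusted p = 0.308). Subcutaneous Idh1, the cytosolic isocitrate dehydrogenase, had 12.71 ± 0.24 and 13.13 ± 0.28 (difference 0.41 ± 0.16, SE, limma adjusted p = 0.330). These 2 NADPH sources were thus on the opposite side of 0 from Me1. Gonadal Nnt and Pgls had differences of -0.25 and -0.17.

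Among 15 further elongation and desaturation genes none was called. In gonadal fat the groups did not overlap for 2 of them with LCN2 lower and for 1 with LCN2 higher. Of all gonadal genes tested, 9.11% did not overlap. Gonadal Fads1, the delta-5 desaturase of polyunsaturated fatty acids, held 3596, 3968, 2535 and 2339 normalized counts with GFP and 2001, 1845, 2297 and 1837 with LCN2. The Fads1 groups did not overlap, and the difference was -0.61 ± 0.18 (SE, limma adjusted p = 0.188), while DESeq2 on the recovered reads gave an adjusted p of 0.0270. On the same reads edgeR did not call Fads1. Gonadal Fads3 had a difference of 0.26 ± 0.13 (SE, limma adjusted p = 0.371). Subcutaneous Elovl3, an elongase abundant in brown fat, had 7.07, 5.19, 4.67 and 6.14 with GFP and 5.06, 4.47, 4.53 and 4.55 with LCN2 (difference -1.12 ± 0.47, SE, limma adjusted p = 0.342). Its highest samples, GFP 1 and GFP 4, were also those highest in Ucp1. Subcutaneous Elovl1 had a difference of 0.16 ± 0.07 (SE, limma adjusted p = 0.342).

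Of 19 other regulators of lipogenic transcription none was called, with differences below 0 for 10 in gonadal and 9 in subcutaneous fat. Gonadal Srebf2, the sterol-responsive relative of Srebf1, had 1230 ± 117 normalized counts with GFP and 1430 ± 91 with LCN2 (SD, n = 4 each), and gonadal Insig2, which retains SREBP in the endoplasmic reticulum, had 2351 ± 500 and 1879 ± 45. Subcutaneous Rxra, the partner of liver X receptors, had 12.47 ± 0.10 and 12.68 ± 0.07, with groups that did not overlap (limma adjusted p = 0.308), and Trib3 had a difference of 0.44 ± 0.19 (SE, limma adjusted p = 0.361). Another 1 of the 19 did not overlap in subcutaneous fat, with LCN2 lower, and of all genes there 7.08% did not overlap.

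Targets of carbohydrate sensing were not called either, 0 of 7 in gonadal and 0 of 6 tested in subcutaneous fat. Gonadal Txnip, a glucose-induced inhibitor of thioredoxin, held 46800, 58857, 38643 and 51632 normalized counts with GFP and 35603, 33894, 18937 and 35201 with LCN2. All LCN2 samples of Txnip lay below all GFP samples, and the difference was -0.69 ± 0.23 (SE, limma adjusted p = 0.228). LCN2 3, the highest LCN2 sample for most members, was the lowest for Txnip. The hormone gene Fgf21 had few reads in gonadal fat, at 2.04 to 14.1 normalized counts with GFP and 6.02 to 41.8 with LCN2. Subcutaneous Khk and Pnpla3 had differences of -0.17 and 0.35.

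Malonyl-CoA, the product of the carboxylases, holds back fatty acid oxidation, and 5 genes of its breakdown and of fatty acid entry into mitochondria were measured. None was called, and differences were above 0 for 4 of 5 in gonadal and below 0 for 4 of 5 in subcutaneous fat. Gonadal Cpt1a, the carnitine palmitoyltransferase of liver and fat, held 2815, 2334, 2761 and 3997 normalized counts with GFP and 3890, 4185, 3926 and 3625 with LCN2 (difference 0.42 ± 0.15, SE, limma adjusted p = 0.250). GFP 4, lowest for the members, was the highest GFP sample for Cpt1a. Gonadal Cpt1b, the muscle and brown fat form, held 6.33, 11.2, 19.1 and 6.63 with GFP and 64.9, 23.2, 35.1 and 18.1 with LCN2. The groups overlapped, with GFP 3 above LCN2 4. The difference was 1.58 ± 0.47 (SE, limma adjusted p = 0.196, DESeq2 adjusted p = 0.0490, edgeR adjusted p = 0.211). Gonadal Ucp1, like Cpt1b, was highest in LCN2 1 (7819) and LCN2 3 (2924). The summed gonadal muscle markers ran from 1150 to 2984 with GFP and from 2125 (LCN2 3) to 46586 (LCN2 4) with LCN2. LCN2 4, with the most muscle signal, was the lowest LCN2 sample for Cpt1b. The part of such cells in the Cpt1b values was not tested. Subcutaneous Mlycd, malonyl-CoA decarboxylase, and Slc25a20, the carnitine carrier, had differences of -0.10 and -0.18.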

How the data were processed

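RNA from frozen fat was made into libraries with the KAPA Stranded mRNA-Seq Kit, per the labels' protocols. Reads were processed with HISAT2 and DESeq2 on GRCm38 (mm10), per the submitters' processing notes, while versions, annotation, counting tool and strandedness of counting were not given in the sources used here. The gonadal values are deposited as a signal: reads per gene divided by 1 size factor per sample, called normalized counts here. Dividing by the value of 1 read gave whole reads for 100% of values (tolerance 1e-06). The subcutaneous values are deposited as rlog, a log2 scale, and their depth is unknown. The depots were normalized separately and fitted apart.

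LCN2 was compared with GFP by limma 3.58.1 with an intensity trend (R 4.3.3), on log2(normalized count + 1) for genes with a mean of at least 10, and on rlog for genes with a mean of at least 3, with Benjamini-Hochberg adjustment over all genes tested and a threshold of 0.05. A pseudocount of 1 understates the change of low genes. edgeR 4.0.16 (quasi-likelihood) and DESeq2 1.42.0 were run on the recovered gonadal reads as alternatives. RPKM used the recovered reads and GENCODE vM21 exon lengths. Symbols were found for 99.2% of gene identifiers. The members and all gene lists were chosen with earlier results of these data known. All members are named, with the 2 genes of smallest p from each further list per depot where none passed, and the 5 genes most like the members. Genes named outside this rule were chosen after their values were seen. Nothing besides the group size says that replicates are separate mice, so the p-values rest on the spread between these samples, which may be technical. The intensity trend also draws each gene's variance toward that of genes of similar level, and with it the Scd1 SE was larger. Of the mammary epithelium markers, 6 of 9 were in the gonadal table, with 1 tested, and 6 of 9 were tested in subcutaneous fat. Of all marker lists, mesothelium was the one with most members at an unadjusted p under 0.05, 4 of 5 in gonadal fat, all 5 below 0 and none called. Macrophage and Schwann cell markers were not called in either depot, and in subcutaneous fat no gene was. There 2 of 5 Schwann cell markers had an unadjusted limma p under 0.05, and 4 of 5 had differences above 0.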

Additional observations from a re-analysis of the deposited data

Results flagged for a closer look

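Values on the log2 scale were examined in groups of 4 for samples that stood apart. A highest or lowest sample was marked by its gap to the nearest other sample. The gap had to be too large a share of the group's range by Dixon's 95% critical value. This was so for 12 of the 88 groups examined, where chance marks about 1 in 20, and GFP 4 was the sample in 6 of them and LCN2 3 in 5. In gonadal fat GFP 4 lay far below the other GFP samples for Acaca (12111 normalized counts), Fasn (9094), Mlxipl (3151) and Fads3 (16148). LCN2 3 lay far above the other LCN2 samples for Elovl6 (21238), Me1 (75801) and Srebf1 (12947), and far below them for Txnip (18937). In subcutaneous fat GFP 4 lay far below the other GFP samples for Fasn (rlog 15.67) and Me1 (13.49). LCN2 1 lay far above the other LCN2 samples for Elovl3 (5.06), and LCN2 3 did so for Mlycd (10.29). Of the 12 marked values, 8 belong to the lipogenesis members, which made up 40 of the 88 groups. The genes come from the same libraries and vary together, so the groups are not independent and the chance rate is a rough guide. Why these samples stand apart was not tested.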

How the results depend on the processing

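No member passed the test under any setting tried, in either depot. In gonadal fat the count of genes called was 20, and it was 818 with DESeq2, 7 with edgeR, 71 with sample weights, 13 with TMM scaling, 6 with scaling by library totals, 6 without the intensity trend, 11 with a mean count of at least 50 and 0 with the replicate block. It was also 0 without GFP 2 and LCN2 4, and 0 without GFP 1, LCN2 1 and LCN2 2, the samples with most hepatocyte signal. Leaving out 1 sample gave 1 to 66 genes, the highest without GFP 4. In subcutaneous fat the count was 0 under every setting. Deviations of same-numbered samples from their group means had correlations of both signs (-0.36 to 0.42 in gonadal and -0.36 to 0.34 in subcutaneous fat). With 4 samples a group, such centred values cannot decide whether the numbers pair samples. The replicate block changed no call of a member.

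In gonadal fat, 16 of 130 member values outside the leave-one-out fits changed sign. Without GFP 1, LCN2 1 and LCN2 2 the values were 0.049 for Acaca, 0.49 for Acly, 1.095 for Elovl6, 1.05 for Fasn, 0.45 for Me1, 0.14 for Mlxipl and -0.0029 for Srebf1. Without GFP 2 and LCN2 4 they were 0.089 for Elovl6 and 0.27 for Fasn. DESeq2 gave 0.21 for Elovl6 and -0.079 for Srebf1, and edgeR 0.22 and -0.074. Sample weights gave -0.10 for Scd1, -0.15 for Scd2 and -0.15 for Srebf1, and moved Acly to -1.90, Acaca to -1.49, Fasn to -1.35, Elovl6 to -1.098, Me1 to -1.01 and Mlxipl to -0.21, none past the test. In subcutaneous fat sample weights gave -1.44 for Acly, -1.27 for Fasn and -0.95 for Me1. Leaving out 1 sample gave ranges of -1.105 to 0.25 for Elovl6, -1.67 to 0.42 for Fasn, -1.08 to 0.012 for Me1, -0.23 to 0.036 for Mlxipl, -0.11 to 0.45 for Scd1, -0.18 to 0.54 for Scd2 and -0.21 to 0.32 for Srebf1. In subcutaneous fat the ranges were -0.069 to 0.19 for Scd1 and -0.084 to 0.31 for Scd2, and all 70 member values under the other settings kept their signs. The median member difference ran from -1.03 to 0.10 in gonadal and from -1.06 to -0.41 in subcutaneous fat on leaving out 1 sample, and without GFP 1 and GFP 2 the subcutaneous median was -0.06. The cause of these shifts was not tested beyond the samples each fit leaves out. Having 4 samples a group limits what these comparisons can detect.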

Other observations

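Some genes of the lists around the members, picked after their values were seen, showed the same high and low samples and were not called. Gonadal Thrsp, a small protein of lipogenic tissues, held 37055, 43094, 43117 and 2883 normalized counts with GFP and 6271, 9474, 34703 and 13811 with LCN2. Its subcutaneous rlog values were 14.57, 14.83, 14.41 and 12.21 with GFP and 12.34, 13.03, 14.04 and 13.70 with LCN2. Tkt, the transketolase of the pentose phosphate pathway, ranged from 6880 (GFP 4) to 59500 (GFP 3) in gonadal fat. Acss2, which makes acetyl-CoA from acetate, ranged from 1247 (GFP 4) to 16955 (LCN2 3). By contrast Pparg, the nuclear receptor of fat cell differentiation, stayed between 4697 and 7890 normalized counts in all 8 gonadal samples.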
